A study of Homo sapiens with 8 samples.

Results

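The histone genes were examined as 1 family on 8 arrays. Members were the genes whose array name began with HIST1H, HIST2H, HIST3H, HIST4H, H2AF, H3F3 or H1F, which gave 85 of 43317 gene names, with 108 probes of 60 bases. Of these, 67 were replication-dependent genes (the HIST names) and 15 were variants, and 3 names were kept apart (H1FX-AS1, an antisense RNA, and the pseudogenes HIST1H2APS1 and HIST2H2BA). The replication-dependent genes comprised 6 linker H1, 16 H2A, 18 H2B, 13 H3 and 14 H4 genes. The array uses older symbols, and all 85 have another symbol in RefSeq today, given in brackets where a gene is first described. H3F3B had no probe under that name and was not analysed here.

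Each two-colour Agilent array set cells given 1 mature miRNA with the reagent Lipofectamine RNAiMAX (red, Cy5) against mock cells of the same line, labelled as having had no transfection (green, Cy3). HCT116, a human colorectal cancer line, was given either strand of miR-139 or of miR-143, and PANC-1, a human pancreatic cancer line, either strand of miR-30c or of miR-30a (the 3p strand of the first being miR-30c-2-3p). Where 4 values of a line follow each other without names, they stand in that order, with the 5p strand of each precursor before its 3p strand. Each miRNA had 1 array, without a dye swap, and no array carried a control miRNA, so the miRNA, the transfection and the dye cannot be told apart. A change here means a log2 ratio of at least 1 from 0 (2-fold), without a test, and bulk RNA cannot separate fewer cells in a phase from less RNA per cell.

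Histones are the proteins around which DNA is wrapped: pairs of H2A, H2B, H3 and H4 form the nucleosome core and H1 binds the linker. Replication-dependent histone genes lie in clusters and are switched on in S phase, and their mRNAs end in a stem-loop bound by SLBP instead of a poly(A) tail. Variant genes such as H2AFZ and H3F3A lie singly, are expressed throughout the cell cycle and give polyadenylated mRNAs. The linear amplification kit named for these arrays primes with oligo-dT, so the replication-dependent values read the RNA that such priming reached, whose share of each mRNA was not measured.

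The mature miRNAs are shown because the arrays differ by them (RefSeq, 5′ to 3′, seed of bases 2 to 8 in capitals). miR-30c-5p and miR-30a-5p share a seed, and the other 6 seeds occur once each.
miR-139-5p: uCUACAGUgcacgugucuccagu
miR-139-3p: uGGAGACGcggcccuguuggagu
miR-143-5p: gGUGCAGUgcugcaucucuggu
miR-143-3p: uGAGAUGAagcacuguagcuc
miR-30c-5p: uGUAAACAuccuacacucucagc
miR-30c-2-3p: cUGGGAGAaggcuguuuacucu
miR-30a-5p: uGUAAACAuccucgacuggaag
miR-30a-3p: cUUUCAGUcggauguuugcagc
The heptamer complementary to a seed occurred in 0 of the 108 histone probes, for each of the 8 miRNAs, which says only that these letters are not in these windows.

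Histone paralogs are alike in sequence, which limits what a probe can tell. In 29 of the 108 probes a run of at least 20 bases was shared with a probe of another histone gene: 10 of 23 H2B probes, 8 of 34 H2A, 7 of 20 H4, 4 of 18 H3 and 0 of 13 H1. Examples are printed with the shared run in capitals: HIST1H2BK (H2BC12; its second probe, chr6:27114437-27114496 in hg19) with HIST1H2BD (chr6:26158474-26158533), HIST1H2BI (chr6:26273375-26273434) with HIST1H2BM (chr6:27783003-27783062), HIST1H2AJ (chr6:27782132-27782191) with HIST1H2AK (chr6:27805729-27805788), and HIST1H4H (chr6:26285497-26285556) with HIST1H4K (chr6:27799089-27799148).
HIST1H2BK: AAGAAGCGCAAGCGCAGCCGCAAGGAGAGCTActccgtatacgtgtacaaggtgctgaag
HIST1H2BD: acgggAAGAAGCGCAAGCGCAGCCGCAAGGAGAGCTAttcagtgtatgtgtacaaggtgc
HIST1H2BI: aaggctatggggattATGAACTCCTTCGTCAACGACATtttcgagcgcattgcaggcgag
HIST1H2BM: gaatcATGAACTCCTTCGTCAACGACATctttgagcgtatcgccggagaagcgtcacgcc
HIST1H2AJ: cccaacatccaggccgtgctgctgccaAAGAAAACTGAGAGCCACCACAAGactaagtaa
HIST1H2AK: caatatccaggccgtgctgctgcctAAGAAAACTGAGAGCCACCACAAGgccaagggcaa
HIST1H4H: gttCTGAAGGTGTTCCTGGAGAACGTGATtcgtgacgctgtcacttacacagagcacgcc
HIST1H4K: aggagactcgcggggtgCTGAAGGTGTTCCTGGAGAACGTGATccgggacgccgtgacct
Values of paralogs in one family are therefore not independent readings, and whether all or a few of their genes moved cannot be told apart.

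The defining stem-loop lay in 6 of the 108 histone probes (5.56%) against 7 of 58201 probes on the array (0.0120%), so few probes read the processed mRNA end itself. The search took a stem of 6 bases opening with GGC and a loop of 4 bases. The stem is in capitals and the loop in lower case.
HIST1H2AI, HIST1H2BE, HIST1H3H second probe and HIST2H3A: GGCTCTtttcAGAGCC
HIST1H2BF: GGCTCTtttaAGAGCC
HIST1H4K second probe: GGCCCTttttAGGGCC
The letters of the poly(A) signal, AATAAA, were in 7 histone probes.

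On the arrays, 56 of the 67 replication-dependent genes were well above background on all 8, 8 on some and 3 on none. Of the 15 variants 11 were detected on all arrays, H2AFB1, H2AFB2 and H2AFB3 on some, and the oocyte linker H1FOO on none. Each array had 60901 spots, of which 44.1% to 45.3% were well above background in Cy3 and 45.8% to 51.4% in Cy5, and the median SD between the 10 spots of a repeatedly printed probe was 0.0393 to 0.0646 (log2). In the mock channels all 3 detected HCT116 epithelial markers were higher in HCT116 and all 4 detected PANC-1 mesenchymal markers in PANC-1. Genes whose probe matched the transfected seed (complement of bases 2 to 8, or of 2 to 7 and an A) were compared with the rest. On 7 of 8 arrays their median log2 ratio was lower, the difference running from -0.021 (miR-139-3p) to -0.085 (miR-30c-5p). On the last HCT116 array it was higher, 0.03 (199 genes) against 0.01, so that array is called the miR-143-3p-labelled array here. All these differences were small, so the check says little about any single label.

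The replication-dependent and the variant genes had different medians on every array, a description without a test. In HCT116 with miR-139-5p, the median log2 ratio was 0.26 over 60 replication-dependent genes and -0.05 over 11 variants. For miR-139-3p it was -0.30 over 61 genes and 0.09 over 14. The miR-143-5p values were 0.15 and -0.01, and those of the miR-143-3p-labelled array -0.11 and 0.08. In HCT116, then, the replication-dependent median lay above the variants on both 5p arrays and below on both 3p arrays. The miR-139-3p variant median lay between the dim probes of H2AFB1 (0.08) and H2AFB3 (0.11). Brighter variants lay on either side of it, from H2AFX at -0.77 to H3F3A at 0.94.

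In PANC-1 the replication-dependent median lay below the variants on all 4 arrays. In order, it was -0.61 against -0.08, -0.18 against 0.02, -0.50 against 0.03 and -0.36 against 0.19. The median of all detected genes was 0.00 to 0.02. The difference between the classes, replication-dependent minus variant, ran from -0.55 (miR-30a-3p) up to 0.31 (miR-139-5p) and kept its sign under all 48 combinations of an array and an alternative setting. The separate medians were less stable: centring without the intensity-dependent (loess) step turned the replication-dependent median on the miR-30a-3p array to 0.19, where all genes were at 0.30, and turned the variant medians of miR-139-5p, miR-143-5p and miR-30c-5p positive.

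**Figure D1:**
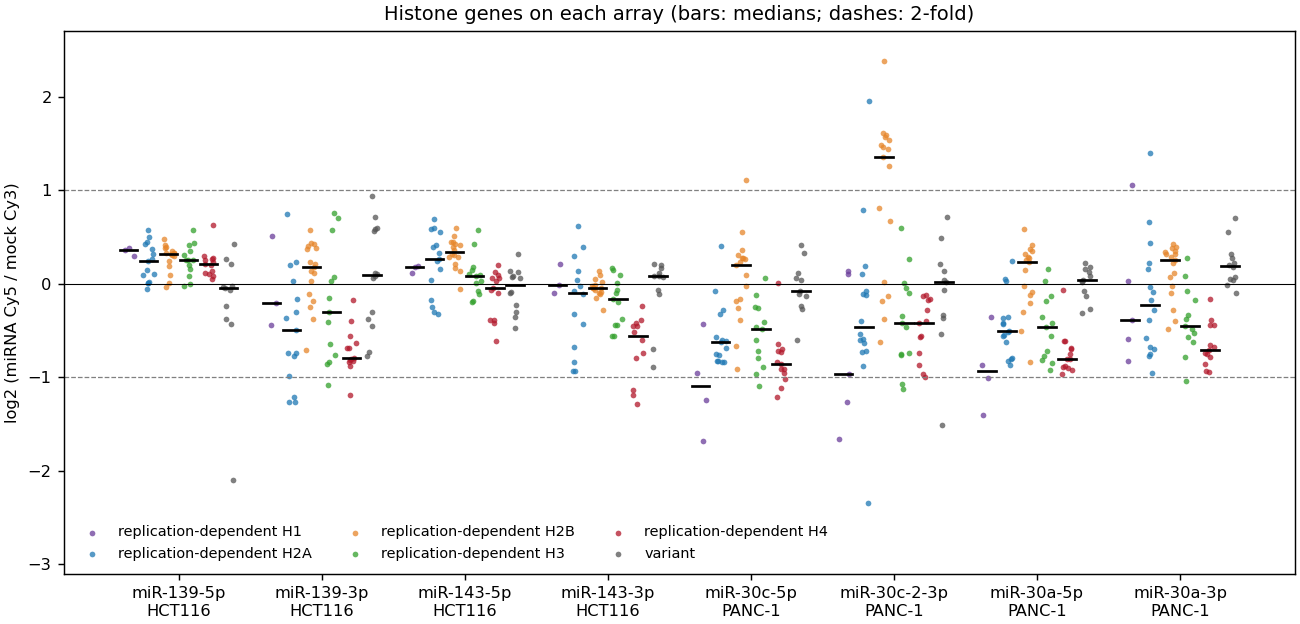
Log2 ratio of miRNA-transfected (Cy5) over mock (Cy3) cells for each detected histone gene on the 8 arrays, grouped by family; points are genes, bars the family medians and dashed lines 2-fold. H4 genes lay mostly below 0 on 6 arrays, and H2B stood at a median of 1.36 on the miR-30c-2-3p array.

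The share of histone genes past 2-fold differed widely between arrays. With miR-30c-2-3p, 7 of 75 detected histone genes fell (background 4.14% of all detected genes) and 11 rose (1.71%). With miR-30c-5p, 6 of 73 fell (0.445%) and 1 rose (0.747%). In percentage points, these were the 2 arrays on which the histone share stood furthest above the background. The lower counts moved with the processing: without loess they were 4 and 1, and by the scanner's own ratio 11 and 14.

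With miR-139-3p, 5 of 75 fell (2.82%) and 0 rose (2.11%). For the miR-143-3p-labelled array, 3 of 69 fell (0.925%) and 0 rose (0.517%), whereas 2 of 75 fell on the miR-30a-5p array (0.263%) and 0 rose (0.306%). With miR-30a-3p 1 of 76 fell (1.1%) and 2 rose (0.372%), but 0 fell and 16 rose without loess, where all genes had a median of 0.30, and 5 fell without background correction. On the remaining arrays almost no histone gene passed.

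With miR-139-5p, 1 of 71 fell (0.201%), the variant H2AFV, and 0 rose (0.0587%). With miR-143-5p, 0 of 72 fell (1.0%) and 0 rose (0.356%). The highest histone values of the miR-139-5p array were HIST1H4C (0.63), HIST2H2AB and HIST2H3A (0.58 each). For miR-143-5p the extremes were HIST1H4L at -0.61 and HIST2H2AA4 at 0.69. HIST2H2AA4 (0.61), HIST3H2A (0.40) and HIST1H2AE (0.30) were the highest on the miR-143-3p-labelled array, so the H2A family held its top values there. In all, 27 genes, 25 of them replication-dependent, gave 39 values past 2-fold. Of these, 26 stayed past 2-fold under all 6 alternative settings, and all 39 kept their sign.

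**Figure D2:**
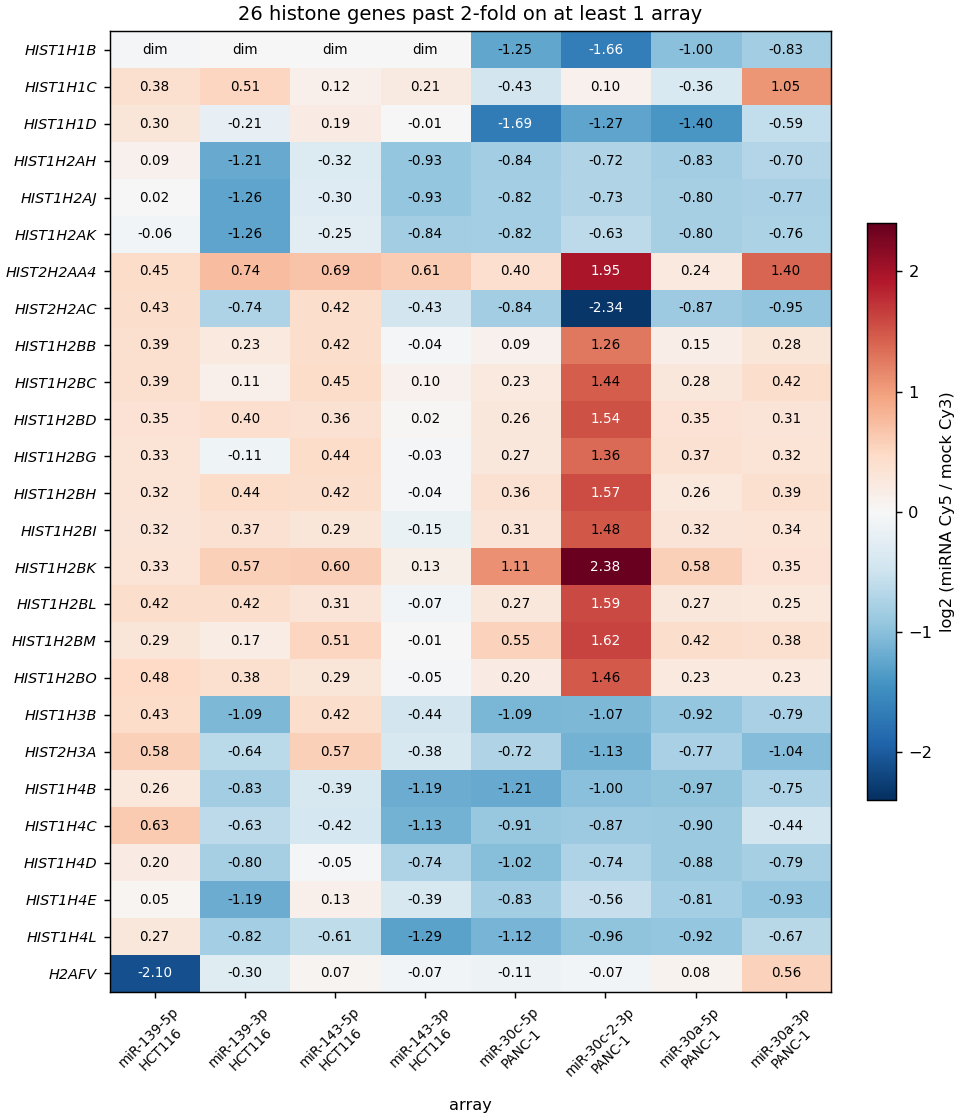
Log2 ratio (miRNA over mock) of 26 histone genes past 2-fold on at least 1 array, in rows by family, with 1 column per array; dim marks a probe not well above background in either channel. The H2B rows stand out in the miR-30c-2-3p column (1.26 to 2.38), and HIST2H2AC lies at -2.34 there.

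Core histone H2B gave the largest shift. With miR-30c-2-3p in PANC-1, 10 of 17 detected H2B genes rose (1.71% of all genes) and 0 fell (4.14%), with a family median of 1.36. On the other arrays the H2B median was 0.32, 0.17, 0.34 and -0.05 in HCT116, and it was 0.20 for miR-30c-5p and 0.23 and 0.25 for the miR-30a strands. The rise therefore stood on 1 array.

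HIST1H2BK was the highest of them. Its log2 ratio was 0.33, 0.57, 0.60 and 0.13 in HCT116 and 1.11, 2.38, 0.58 and 0.35 in PANC-1. All 8 values were positive, and the miR-30c arrays were the highest. With miR-30c-2-3p its level (log2 intensity) was 10.22 in mock and 12.60 in transfected cells, a 5.19-fold rise that stayed between 2.06 and 2.68 (log2) under the alternatives. Its second probe, the sequence printed above, 8246 bases away, read 1.75 for miR-30c-2-3p but 0.38 for miR-30c-5p, where the first probe alone passed 2-fold.

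The other 9 H2B genes that rose with miR-30c-2-3p lay close together. HIST1H2BM (H2BC14) was at 1.62, HIST1H2BL at 1.59, HIST1H2BH at 1.57, HIST1H2BD at 1.54, HIST1H2BI at 1.48, HIST1H2BO at 1.46, HIST1H2BC at 1.44, HIST1H2BG at 1.36 and HIST1H2BB at 1.26. The spread of these 9 genes was less than the step to HIST1H2BK. On the other 7 arrays their values ran from -0.15 to 0.55. Their longest shared runs ranged from 11 bases for HIST1H2BB to 32 for HIST1H2BD (the HIST1H2BB probe was 85.4% identical over 41 bases to that of HIST1H2BL), so these probes are not independent readings.

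Other H2B genes did not pass 2-fold on that array. HIST1H2BJ was at 0.81, HIST1H2BN at 0.67, HIST3H2BB at 0.02, HIST2H2BF at -0.13 and HIST2H2BE at -0.18. The H2B probes that hold the 3′ stem-loop were the lowest of the family, HIST1H2BF at -0.37 and HIST1H2BE at -0.63. The part of the probe's place on the mRNA in these values was not tested.

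H4, the core histone paired with H3, lay on the opposite side. Its median was 0.21, -0.80, -0.05 and -0.56 in HCT116 and -0.86, -0.42, -0.80 and -0.71 in PANC-1. All detected H4 genes were below 0 on both 3p arrays of HCT116 (13 of 13 for miR-139-3p, 12 of 12 for the other). The same held on 3 PANC-1 arrays (13 of 13 each), and for 12 of 13 on the miR-30c-5p array. Of all detected genes, 44.2% (miR-30a-3p) to 48.9% (miR-143-5p) were below 0 on an array. The value with miR-143-5p was positive when loess was left out (0.07 above all genes).

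On the miR-143-3p-labelled array, 3 of 12 detected H4 genes fell past 2-fold, against 0.925% of all genes. The miR-30c-5p array had 3 of 13 (0.445% of all genes). A single H4 gene of 13 fell past 2-fold on the miR-30c-2-3p array (4.14%), and likewise on the miR-139-3p array (2.82%). No H4 gene fell that far on the remaining arrays, and none rose past 2-fold on any array. HIST1H4B fell to -1.19 on the miR-143-3p-labelled array, and to -1.21 and -1.002 with the 5p and 3p strands of miR-30c. HIST1H4L fell to -1.29 on the miR-143-3p-labelled array and to -1.12 with miR-30c-5p. Its second probe, 105 bases away and dimmer, read -0.09 and -0.56 on those arrays. Several fell on 1 array only: HIST1H4C (H4C3) to -1.13 on the miR-143-3p-labelled array, HIST1H4D to -1.02 with miR-30c-5p, and HIST1H4E to -1.19 with miR-139-3p. Without loess, HIST1H4B, HIST1H4D and HIST1H4L were under 2-fold with miR-30c-5p (-0.63, -0.54 and -0.49). The same held for HIST1H4B with miR-30c-2-3p (-0.69) and HIST1H4C on the miR-143-3p-labelled array (-0.93). The second HIST1H4C probe read -0.41 where the first read -1.13, and with the median over probes 1 histone gene, in place of 3, was past 2-fold on the miR-143-3p-labelled array. The H2B median exceeded the H4 median on all 8 arrays, by 0.11 (miR-139-5p) up to 1.78 (miR-30c-2-3p).

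H2A genes split. HIST1H2AH, HIST1H2AJ and HIST1H2AK, of which the last pair share 24 bases, fell with miR-139-3p to -1.21, -1.26 and -1.26. The miR-143-3p-labelled array had them at -0.93, -0.93 and -0.84, and the 4 PANC-1 arrays between -0.84 and -0.63. With miR-139-5p they lay near 0, at 0.09, 0.02 and -0.06. The H2A family medians were 0.25, -0.50, 0.27 and -0.09 in HCT116 and -0.62, -0.47, -0.51 and -0.23 in PANC-1.

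A pair of H2A genes of the chromosome 1 cluster moved in opposite directions with miR-30c-2-3p, while both were positive on the 5p arrays of HCT116. HIST2H2AC (H2AC20, chr1:149858863-149858922) was at 0.43, -0.74, 0.42 and -0.43 in HCT116 and at -0.84, -2.34, -0.87 and -0.95 in PANC-1. It fell 5.08-fold with miR-30c-2-3p, from a level of 9.99 to 7.65, and passed 2-fold nowhere else. HIST2H2AA4 (H2AC19, chr1:149822628-149822687), which has a near-identical neighbouring copy, was positive on all 8 arrays: 0.45, 0.74, 0.69 and 0.61 in HCT116 and 0.40, 1.95, 0.24 and 1.40 in PANC-1. It rose on both 3p arrays of the line, from a level of 7.22 to 9.17 for miR-30c-2-3p and from 7.85 to 9.25 for miR-30a-3p.

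H3 genes were mostly lower where H4 was lower. Family medians were 0.25, -0.30, 0.08 and -0.17 in HCT116 and -0.49, -0.42, -0.47 and -0.45 in PANC-1, the last of which, miR-30a-3p, stood 0.03 above all genes when loess was left out. HIST1H3B (H3C2) fell to -1.09 with miR-139-3p and to -1.09 and -1.07 with the strands of miR-30c, and was at 0.43 and 0.42 on the 5p arrays of HCT116. Without loess its values with the strands of miR-30c were -0.57 and -0.83, under 2-fold. HIST2H3A (H3C15), which has near-identical copies and whose probe holds the stem-loop, fell with miR-30c-2-3p (-1.13) and miR-30a-3p (-1.04). Without loess these HIST2H3A values were -0.85 and -0.29 (-0.93 and -0.59 against the median of all genes), under 2-fold. HIST1H3C and HIST3H3, the latter a testis H3, went the other way with miR-139-3p, at 0.71 and 0.76, and neither passed 2-fold on any array. The HIST3H3 probe was bright (mean log2 signal 13.35) and 85% identical over 40 bases to that of HIST2H3D, which read 0.03 with miR-139-3p. The HIST1H3C probe was 80% identical over 55 bases to that of HIST3H3. Whether the HIST3H3 probe read HIST3H3 RNA or that of other H3 genes cannot be told apart.

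Linker H1 had few measurable genes, 3 in HCT116 and 4 or 5 in PANC-1. HIST1H1D (H1-3) was at 0.30, -0.21, 0.19 and -0.01 in HCT116 and at -1.69, -1.27, -1.40 and -0.59 in PANC-1, so it fell on 3 PANC-1 arrays. The lines were given different miRNAs, so line and miRNA cannot be told apart in these values. HIST1H1B (H1-5) was not well above background in HCT116, and in PANC-1 it was at -1.25, -1.66, -1.004 and -0.83, falling on the first 3. Without loess its values with miR-30c-5p and miR-30a-5p were -0.81 and -0.71 (-1.02 and -0.86 against the median of all genes). HIST1H1E (H1-4) had values of -0.95, -0.96, -0.87 and -0.39 in PANC-1. HIST1H1C (H1-2) alone rose, with miR-30a-3p (1.05, level 11.37 to 12.42), and was at 0.10 with miR-30c-2-3p.

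Among the variants, H2AFV (H2AZ2), which encodes a form of H2A.Z found at promoters, showed a large fall on 1 array. Its log2 ratio was -2.10, -0.30, 0.07 and -0.07 in HCT116 and -0.11, -0.07, 0.08 and 0.56 in PANC-1. The miR-139-5p value stood apart from the other 7, at a level of 11.11 against 13.21 in mock (4.29-fold), and stayed between -2.13 and -1.07 under the alternatives. It was also the lowest histone value of that array, where no other histone gene passed 2-fold. The second H2AFV probe, 6399 bases away and dim (mean log2 signal 6.04), read -0.05 there, so the fall rests on 1 probe (chr7:44873872-44873931).

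H2AFZ (H2AZ1), the other H2A.Z gene, did not pass 2-fold on any array, with values of -0.02, -0.38, -0.30 and -0.70 in HCT116 and -0.27, 0.13, -0.27 and 0.07 in PANC-1. H2AFX (H2AX), which is phosphorylated at DNA breaks, was below 0 on all 4 HCT116 arrays (-0.38, -0.77, -0.47 and -0.89) and at -0.60, 0.21, -0.31 and 0.32 in PANC-1. H2AFJ (H2AJ) lay between -0.43 and 0.56, and the macroH2A genes H2AFY and H2AFY2 between -0.45 and 0.48 and between -0.73 and 0.22. None of these H2A variants passed 2-fold.

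The replacement histone H3.3 gene H3F3A (H3-3A) was 0.94 with miR-139-3p and 0.71 with miR-30c-2-3p, under 2-fold, and between -0.10 and 0.43 elsewhere. The linker variant H1FX (H1-10) ran from -0.54 (miR-30c-2-3p) to 0.72 (miR-139-3p).

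Arrays with the shared miR-30 seed were alike over the histone genes. Over 73 genes detected on both, the log2 ratios of miR-30c-5p and miR-30a-5p had Pearson r 0.97 and Spearman rho 0.98, a description across genes, which are not independent. The largest difference was 0.52, at HIST1H2BK. The other strands, miR-30c-2-3p and miR-30a-3p, which have different seeds, had r 0.71 over 71 genes. In HCT116, miR-139-3p and the miR-143-3p-labelled array, also with different seeds, had r 0.77 over 68 genes. The part of the seed in this likeness was not tested.

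The mock channels themselves differed within HCT116, which bears on every HCT116 value above. Between the mock channels of the miR-139 arrays and those of the miR-143 arrays, the replication-dependent median differed by 0.63 (log2 intensity), with H4 at 1.06, H2A at 0.97, H3 at 0.85, H1 at 0.36 and H2B at 0.35, all higher on the miR-139 arrays. For 21 of 63 replication-dependent genes the mock channels were at least 2-fold apart, against 0.974% of all genes. The mock channels of 2 arrays of one precursor differed by a median of only 0.0397 (absolute), and all genes differed between precursors by a median of 0.107. The mock difference of 0.63 was thus larger than the replication-dependent median log2 ratio of each HCT116 array.

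In PANC-1 the mock channels were closer. The replication-dependent median differed between the miR-30c and miR-30a arrays by 0.14, and 0 of 63 genes were 2-fold apart (0.190% of all genes). H4 differed by 0.28 and H2B by -0.07. The labels do not say whether arrays of one precursor shared a mock RNA.

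Levels in the single channels were set against each gene's mean over the 8 channels of its line, so the mock and transfected values of a gene balance around 0. With mock always in Cy3, they cannot show which side moved. In this form the H4 median in PANC-1 was 0.45, 0.53, 0.23 and 0.20 in mock and -0.35, 0.00, -0.57 and -0.50 in transfected cells, in the same order. All 4 transfected channels lay below all 4 mock channels. For H2B the mock channels were at -0.33, -0.27, -0.20 and -0.14 and the transfected ones at -0.16, 1.04, -0.01 and 0.05, so the miR-30c-2-3p channel stood apart from the other 7. In HCT116 the H4 medians were 0.65, 0.67, -0.41 and -0.37 in mock and 0.84, -0.06, -0.43 and -0.93 in transfected cells, and the ranges overlapped.

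**Figure D3:**
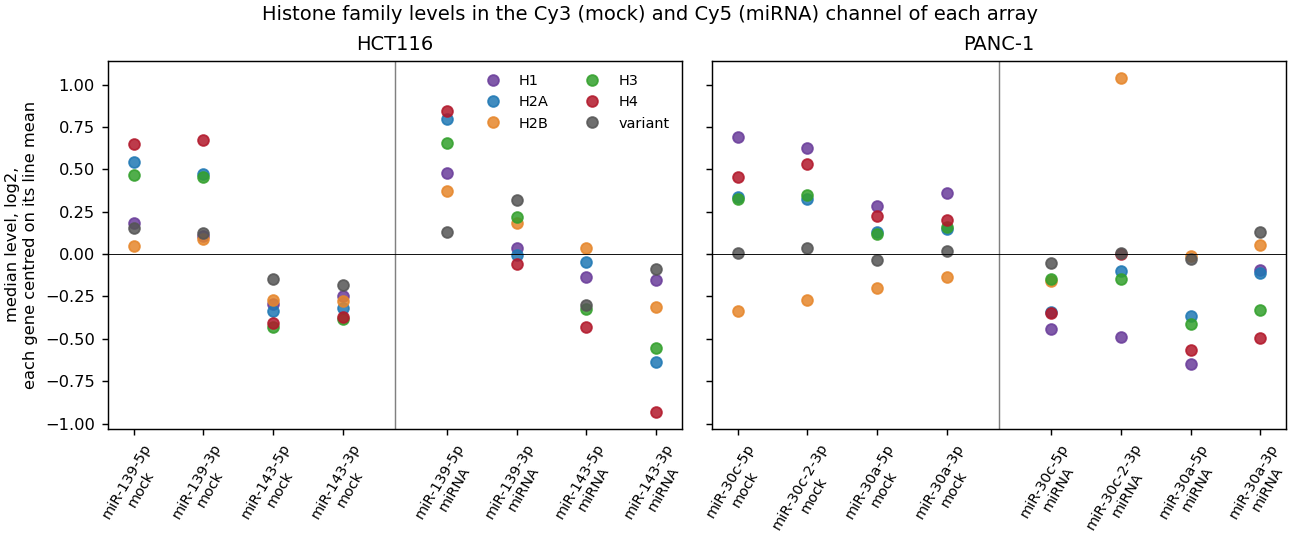
Median level of each histone family (log2, each gene centred on its mean over the 8 channels of its line) in the mock (Cy3) and miRNA (Cy5) channel of every array. In HCT116 the mock channels of the miR-139 and miR-143 arrays were apart (H4 at 0.65 and 0.67 against -0.41 and -0.37), while in PANC-1 the H4 medians of mock and transfected cells did not overlap.

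Between the lines, the size and direction of the histone mock difference depended on which HCT116 mock channels were used. The median difference, HCT116 minus PANC-1, was 0.12 over 63 replication-dependent genes and 0.07 over 11 variants (log2 intensity of the same probe). The 4 mock channels of each line did not overlap for 19 of 63 replication-dependent genes and 7 of 11 variants, against 66.6% of all detected genes. That count does not measure likeness, since the HCT116 ranges span the shift between its mock channels. With the mock channels of the miR-139 arrays alone the replication-dependent median was 0.51, and 55 of 63 genes did not overlap with PANC-1 (80.1% of all genes). With those of the miR-143 arrays alone it was -0.29, and 46 of 63 did not overlap (79.6%). Of the replication-dependent genes 1 was at least 2-fold higher in HCT116 (5.99% of all genes) and 7 in PANC-1 (6.19%). The line and the column of the slide cannot be told apart.

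H4 levels averaged over the channels were higher in HCT116 for 12 of 13 genes (10008 of 19503 over all detected genes). The median difference was 0.57, with HIST1H4J at 1.22, but the lines did not overlap for only 2 of the 13 (66.6% of all genes). The median was 1.13 with the miR-139 mock channels (13 of 13 higher) and 0.01 with the miR-143 ones (7 of 13 higher). Over all detected genes, 10295 and 9538 of 19503 were higher. HIST1H1B had a level of 8.80 ± 0.23 (SD, n = 4 mock channels) in PANC-1 and was not well above background in HCT116, at least 7.88-fold lower there. HIST1H1D was 3.61-fold higher in PANC-1 (9.81 ± 0.19 against 7.95 ± 0.37), HIST1H2BK 2.44-fold and HIST2H2BF 4.86-fold, the last with 2 of 4 HCT116 channels above background. HIST1H2AL was at least 2.498-fold higher in PANC-1. With the miR-143 mock channels alone, HIST1H4J and HIST1H2BK were under 2-fold.

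Among the variants, H2AFV was 2.22-fold and H2AFJ 2.23-fold higher in PANC-1, H2AFV under 2-fold with the miR-139 mock channels alone. The 4 mock channels of a line formed 2 close pairs, 1 per precursor, so an SD over them holds mostly the gap between the pairs, which for HIST1H1D in HCT116 was 0.63. Arrays of one precursor may share a mock RNA, so n = 4 does not stand for 4 cultures.

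**Figure D4:**
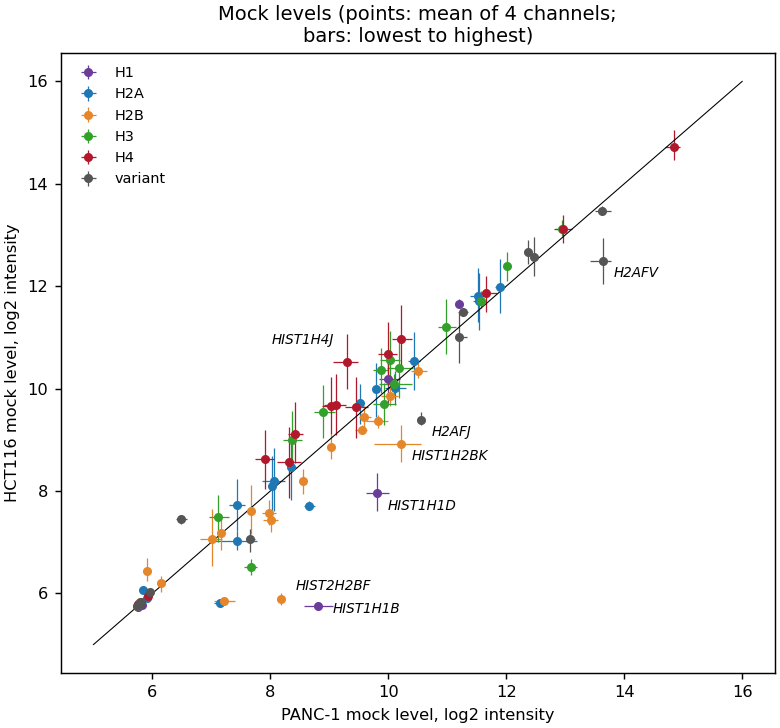
Mock level (log2 intensity) of the histone genes in HCT116 against PANC-1; points are means of 4 mock channels, bars run from the lowest to the highest, and the line marks equal levels. HIST1H1B, HIST1H1D and HIST2H2BF lie furthest below the line, and HIST1H4J lies above it.

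Probes of one gene did not always read alike. Of 20 histone genes with several probes, 13 of 23 further probes lay well above background on all arrays in each channel, and 7 of the 23 differed from the representing probe by over 1 (log2) on some array. HIST1H4H (H4C8) had a second probe 4211 bases away, with the poly(A) signal, at 0.53, 0.97, 0.37 and 0.81 in PANC-1, where the representing probe read -0.72, -0.28, -0.68 and -0.39. The signs were opposite on all 4 of those arrays. For HIST1H2AC, a probe 14361 bases away read 2.30 with miR-139-3p and 1.47 with miR-30a-3p, where the representing probe read -0.77 and -0.08 and another, 58 bases away, -0.15 and -0.23. The transcripts that these distant probes read were not identified here.

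**Figure D5:**
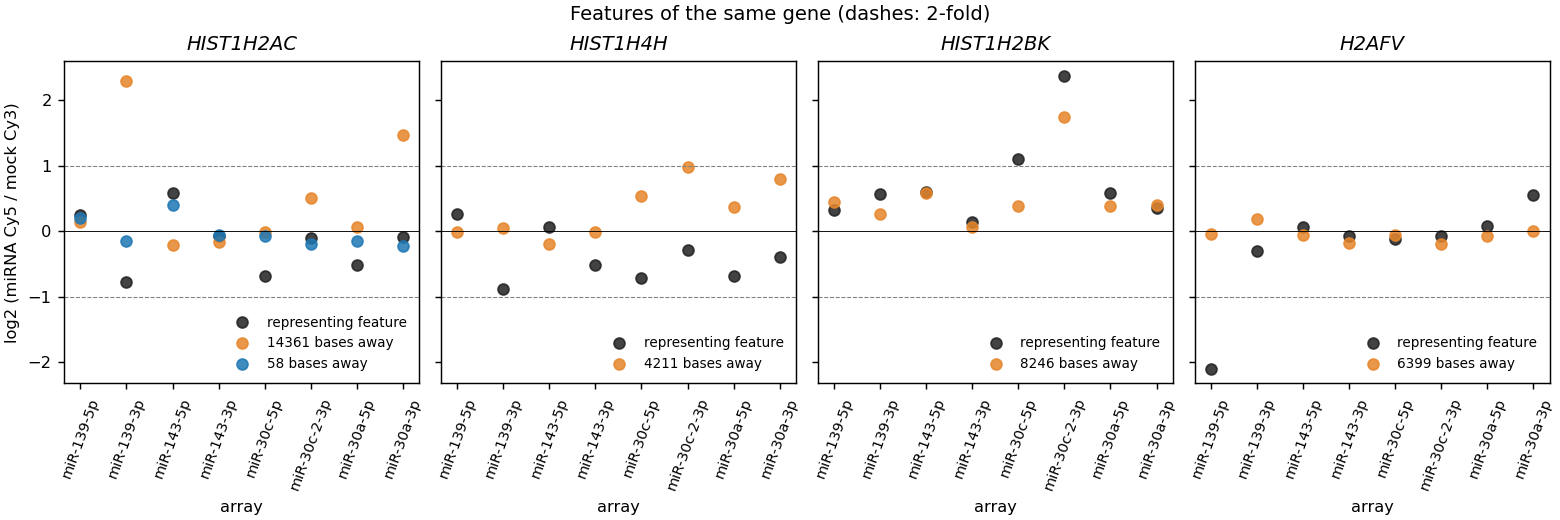
Log2 ratio (miRNA over mock) of each probe of HIST1H2AC, HIST1H4H, HIST1H2BK and H2AFV on the 8 arrays; colours mark the representing probe and the others by distance. The distant HIST1H2AC probe stood at 2.30 with miR-139-3p, and the HIST1H4H probes were on opposite sides of 0 in PANC-1.

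Genes that make, process or remove histone mRNA were read from lists of known components. SLBP, which binds the stem-loop, was at 0.06, -0.58, -0.30 and -0.58 in HCT116 and at 0.12, 0.04, -0.02 and 0.16 in PANC-1, with no value past 2-fold. NPAT, the histone gene co-activator, lay between -0.30 and 0.33, and its partner CASP8AP2 between -0.52 and 0.20. Of 24 transcription and processing genes on the array, 4 fell with miR-139-3p (2.82% of all genes), the cyclins CCNE1 (-2.12) and CCNE2 (-1.06) and the factors E2F2 (-1.49) and TFDP1 (-1.34). With miR-30c-2-3p 3 fell (4.14% of all genes), SYMPK, a scaffold of the cleavage complex (-1.79), E2F2 (-1.72) and CCNE1 (-1.52).

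On the other arrays of that list, CPSF3, the nuclease that cuts histone pre-mRNA, fell with miR-139-5p (-1.19; 0.201% of all genes fell), TFDP1 with miR-143-5p (-1.16; 1.0%), and CCNE1 rose with miR-30c-5p (1.20; 0.747% rose). Among 8 decay genes, DCP2, which removes mRNA caps, was at 1.35, 1.81, 1.18 and 0.82 in PANC-1, rising on the first 3 arrays (0.747%, 1.71% and 0.306% of all genes rose), and was the only one of them past 2-fold on any array.

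Of 26 histone chaperones and importins, 6 fell with miR-139-3p (2.82% of all genes): MCM2 (-2.25), CHAF1B (-1.56), ASF1B (-1.50), HIRA (-1.28), RBBP4 (-1.12) and NASP (-1.06). These carry H3 and H4 to or onto DNA. With miR-30a-3p HIRA (-1.43) and NASP (-1.03) fell (background 1.1%), with miR-30c-2-3p IPO4 (-1.45) and NAP1L1 (-1.27; background 4.14%), and with miR-139-5p NAP1L1 (-1.16; background 0.201%). ANP32E, which removes H2A.Z, was at -0.90 on the miR-143-3p-labelled array, and the centromeric CENPA between -0.70 and 0.41.

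S-phase genes moved with the replication-dependent histones in part. The median of 20 S-phase genes was -0.03, -0.64, -0.28 and -0.64 in HCT116 and -0.12, -0.24, -0.11 and -0.13 in PANC-1. With miR-139-3p 7 fell (2.82% of all genes), led by MCM2 and CDC45 (-1.65), and 4 fell on each miR-143 array (1.0% for the 5p and 0.925% for the other). With miR-30c-2-3p 3 fell (4.14%) and 1 rose (1.71%), and with miR-30a-3p 1 fell (1.1%). None of the 20 passed 2-fold with miR-139-5p, or with miR-30c-5p and miR-30a-5p, where the histone medians were the lowest of the 8 arrays. Between the HCT116 mock channels 19 of 20 S-phase genes were higher on the miR-139 arrays, by a median of 0.44 (0.01 over all detected genes). In PANC-1 the median difference was 0.02 (0.01 over all detected genes). The part of cell-cycle phase in the histone values was not tested.

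Promoter letters differed by family. RefSeq promoters (GRCh38.p14, 250 bases before to 50 after the start) were found for 75 of 85 names, and motifs were sought on both strands in these and in 27305 promoters in all. TATAAA was in 66.1% of 62 replication-dependent promoters, 23.1% of 13 variant promoters and 11.95% of all, and CCAAT in 85.5%, 76.9% and 35.7%. The octamer ATTTGCAT was in 14 of 18 H2B and 11 of 15 H2A promoters, 1 of 11 H3 promoters and 0 of the H1 and H4 promoters, against 1.80% of all. CCAAT was in all H1, H2A, H2B and H3 promoters and in 3 of 12 H4 promoters. Of the H2B genes that rose with miR-30c-2-3p, HIST1H2BD and HIST1H2BL lacked the octamer and all others held it. Of the detected H2B genes that did not pass 2-fold there, HIST1H2BN and HIST3H2BB lacked it. HIST1H2BE, HIST1H2BF, HIST1H2BJ, HIST2H2BE and HIST2H2BF held it. H2A promoters held the same letters as H2B, and the H2A medians in PANC-1 were negative. Some of these windows are partly the same DNA, as for the neighbours HIST1H2AC and HIST1H2BC. HIST1H3D, the H3 gene with the octamer, has the same window as HIST1H2AD. The family counts are therefore not counts of separate promoters. The part of these letters in the log2 ratios was not tested.

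The E2F-type motif TTTCGCGC was in 19.4% of replication-dependent promoters and 0.546% of all, and TTTGGCGC in 0 of the 75. The 150 bases before the start are printed for a gene that rose, 2 that fell and an H4 gene, with motif matches in capitals, for HIST1H2BK (chr6:27146859-27147008, minus strand), HIST2H2AC (chr1:149886768-149886917, plus), HIST1H4H (chr6:26285535-26285684, minus) and H2AFV (chr7:44848088-44848237, minus).
HIST1H2BK: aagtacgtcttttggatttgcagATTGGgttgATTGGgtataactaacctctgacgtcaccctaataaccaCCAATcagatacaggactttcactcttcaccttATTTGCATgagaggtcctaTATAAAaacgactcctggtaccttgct
HIST2H2AC: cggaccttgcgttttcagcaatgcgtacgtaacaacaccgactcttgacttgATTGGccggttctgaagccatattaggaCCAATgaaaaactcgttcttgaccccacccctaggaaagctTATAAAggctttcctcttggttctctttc
HIST1H4H: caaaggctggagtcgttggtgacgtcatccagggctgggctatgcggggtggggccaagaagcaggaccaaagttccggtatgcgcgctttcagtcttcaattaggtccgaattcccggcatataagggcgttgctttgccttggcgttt
H2AFV: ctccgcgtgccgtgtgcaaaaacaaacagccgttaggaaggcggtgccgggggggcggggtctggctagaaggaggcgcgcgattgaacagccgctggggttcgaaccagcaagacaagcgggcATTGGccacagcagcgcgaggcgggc
HIST1H2BK holds the octamer, CCAAT and TATAAA together, and HIST1H4H holds no match. The HIST2H2AC promoter was counted above as holding the octamer, which lies in the 300-base window but outside the 150 bases printed.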

How the data were processed

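RNA from 8 cultures, each transfected with 1 miRNA, was set against mock RNA of the same line on 8 Agilent arrays of 1 slide (HCT116 in column 1, PANC-1 in column 2). The deposited scanner files hold the red and green mean signal and background of each spot as intensity, not yet normalized, and the authors' log10 ratio (red over green, from processed signals). The deposited value table equals that log10 ratio, with a largest difference of 0. Mean signals were background-corrected (normexp, offset 50), loess-normalized within each array, and averaged over spots of a probe, with control spots at weight 0 in loess and outlier spots left out (limma 3.58.1, R 4.3.3). The log2 ratios were computed here, while the deposited ratio was used, converted to log2, as an alternative. Each gene took the value of its brightest probe (mean over the arrays), where well above background in at least 1 channel. Mock levels were quantile-normalized Cy3 signals. Probe coordinates are those of the files (hg19), and promoters and miRNAs are from RefSeq (GRCh38.p14). With 1 array per miRNA there was no test, and their number sets the limit of precision (arrays have no read depth). Named genes were the 3 lowest and 3 highest histone genes of an array, all past 2-fold and a set of variants, plus listed pathway genes past 2-fold and a few fixed ones. Members and lists were chosen with earlier results of these data known. Alternatives were no background correction, the scanner ratio, centring without loess, other filters on dim probes and the median over probes. The pipeline was tested on simulated data. A comparison of protein sequences was not made. Values of 1 further gene are not reported here.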

Additional observations from a re-analysis of the deposited data

Results flagged for a closer look

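Some values stood past 2-fold in probes that entered none of the counts of histone genes. The antisense RNA H1FX-AS1 was at 1.72 (log2) with miR-30c-2-3p, read by 1 of its 3 probes, while the others were at -0.06 and -0.01. The distant HIST1H2AC probe, described with the probes of one gene, was at 2.30 with miR-139-3p and at 1.47 with miR-30a-3p, against -0.77 and -0.08 for the probe used for the gene. A second HIST1H4D probe was at -1.01 with miR-30a-3p, against -0.79. No mock level of a histone gene had 1 of its 4 channels far from the rest by Dixon's criterion. Since the 4 channels of a line formed 2 close pairs, that criterion could hardly have marked 1 of them, so this says little.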

How the results depend on the processing

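No paired analysis was possible because each miRNA was on 1 array, with no replicate arrays. Of the recomputed counts and class differences, 119 stayed close to the reported value and 35 moved. Of the other recomputed values, 1460 stayed close and 232 moved. Single genes did change sign, since some class medians given earlier turned positive when loess was left out. All 39 values past 2-fold kept their sign. By the scanner log ratio, the histone genes at least 2-fold lower became 9 (miR-139-3p), 14 and 11 (5p and 3p strands of miR-30c) and 4 and 3 (those of miR-30a), and those higher 5 (miR-139-3p), 3 (miR-143-5p) and 1 (its 3p-labelled partner). With centring and no loess, the lower counts on the PANC-1 arrays were 1, 4, 1 and 0, and the higher counts were 1 for miR-139-5p, 2 for miR-30c-5p, and 1 and 16 for the strands of miR-30a, with the median of all genes at 0.30 in the last. Without background correction 5 were lower with miR-30a-3p. With the median over probes, 1 was lower on the miR-143-3p-labelled array and 0 higher with miR-30c-5p. The replication-dependent minus variant difference became -1.06 (miR-139-3p) and, over the PANC-1 arrays, -0.68, -0.37, -0.75 and -0.69 by the scanner ratio, and -0.65 for both miR-30c-5p and miR-30a-5p without background correction. It became -0.42 and -0.45 for the same arrays by the median over probes, -0.45 (miR-30c-2-3p) and -0.69 (miR-30a-3p) without loess, -0.30 (miR-30c-2-3p) with both channels above background and -0.35 (miR-30a-3p) with no filter. The cause of these moves was not tested. Mock differences between the lines did not move with 75th percentile scaling, no background correction or no filter on dim probes. In an alternative chosen after seeing the data, which takes the HCT116 mock channels of 1 precursor, the replication-dependent difference became 0.51 (miR-139) and -0.29 (miR-143), and the variant one 0.23 and -0.22. The arrays have no replicates, no dye swap and, in HCT116, mock channels that differ in histone level, and dim probes (signal near background) bound what HIST1H1B, the H2AFB genes and H1FOO can show.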
